A study of Mus musculus with 4 samples.

Results

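Sinusoidal endothelial cells line the wide, fenestrated venous channels of the bone marrow. They were picked out of 4 single-cell RNA libraries of mouse tibial marrow by their own transcripts, and 3022 of 19134 filtered barcodes met the rule. A barcode first needed at least 500 detected genes and at most 10% of its unique molecular identifiers (UMIs, each standing for 1 captured RNA molecule) in mitochondrial genes. It then needed at least 4 UMIs of Stab2, Flt4 and Adamts5 together and at least 2 UMIs of Cdh5, Pecam1 and Emcn together. Barcodes with any UMI of the leukocyte gene Ptprc, with 20 or more UMIs of the bone matrix genes Col1a1 and Bglap, or with 1% or more of their UMIs in the neutrophil genes S100a8 and S100a9 were left out. The cells were thus chosen by their measured UMIs of these 11 genes and by depth and mitochondrial share, so their values are given only as a description.

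The study crossed deletion of Vegfc, which encodes a secreted growth factor of lymphatic and blood vessels, with total body irradiation, and made 1 library of each of the 4 combinations. All mice were of the C57Bl/6JCrl strain and homozygous for floxed Vegfc, so the controls carry the floxed alleles too. The Vegfc-deleted mice carried in addition Rosa26-CreERT2, a tamoxifen-activated Cre expressed from a ubiquitous locus, so the deletion was not directed at endothelium. The labels give 5 intragastric tamoxifen doses at 7 to 8 weeks of age for both genotypes in one place and for samples 1 to 3 only in another. Irradiated mice received 4 Gy 2 weeks after tamoxifen and their marrow was taken after a further 7 days. Libraries without irradiation pooled 3 mice each and those with it 2 mice, although another statement counts 3 irradiated mice per genotype. An injected antibody labelled VE-cadherin on the vessels before collection. The flushed marrow was digested with enzymes. Viable cells without lineage markers and without CD45 or Ter119 were sorted and captured with 10x Genomics 3' chemistry.

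Marrow sinusoids carry blood back from the tissue, let newly made blood cells cross into the circulation, and clear macromolecules by scavenger receptors. Their lining expresses Flt4 (VEGFR3, the receptor of the Vegfc protein) and Stab2, which sets it apart from arterioles. Irradiation dilates and breaks up these vessels, and their regrowth through VEGF receptors is a known step in the recovery of blood formation.

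Values of the 4 libraries are listed throughout as control and Vegfc-deleted without irradiation, then control and Vegfc-deleted with it. Sinusoidal cells numbered 343, 394, 1587 and 698. They made up 6.37% (5.73 to 7.06), 7.12% (6.45 to 7.83), 39.9% (38.4 to 41.5) and 16.5% (15.4 to 17.6) of the filtered barcodes. Both irradiated libraries held larger shares, and the irradiated control held the largest. Shares describe the digested and sorted fraction, and a change in sinusoidal cells cannot be told apart from a change in the other cells around them. Members held 3728910, 4117946, 18162372 and 6022535 UMIs in all, with medians of 9940, 9562, 10133 and 7705 UMIs and 3251, 3210, 3488 and 2980 genes per cell. Each group is a single library, so no difference was tested against the spread between mice. All intervals are 95% intervals (exact binomial for shares, exact conditional binomial for ratios) and cover counting error only.

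The rule left few borderline cells. Median UMIs of Stab2, Flt4 and Adamts5 together were 42, 37, 49 and 37 per cell, and those of Cdh5, Pecam1 and Emcn were 19, 17, 25 and 17. Just inside the threshold, 2, 5, 31 and 11 barcodes had 4 or 5 UMIs of the sinusoidal genes, and just outside it 12, 6, 22 and 9 had 2 or 3. The Ptprc condition removed 18, 22, 68 and 137 barcodes and the neutrophil condition 4, 9, 29 and 81, the largest numbers being those of the irradiated Vegfc-deleted library. Between libraries, 3, 4, 12 and 2 members shared their barcode sequence with a barcode of another library.

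The label was set beside marker lists of 13 cell types, as UMIs per 1000000 UMIs of the summed cells (CPM). All 5 sinusoidal markers (Stab2, Flt4, Adamts5, Cdh5 and Emcn) are selecting genes, so their level describes the rule and does not check the label. They summed to 5733, 5403, 6797 and 6664 CPM in members and to 56.2, 40.7, 269 and 183 CPM in all other barcodes. The lymphatic markers summed to 52.3, 18.2, 5.62 and 3.99 CPM. Prox1 carried most of this, at 50.15, 16.27, 4.625 and 3.985 CPM, with a UMI in 22.7%, 11.9%, 4.35% and 2.72% of members. Lyve1 and Reln were at most at 1.88 CPM, and Pdpn, which lymphatic endothelium expresses, was at 0 in all 4 libraries. Arterial and capillary markers summed to 392, 586, 749 and 738 CPM, with Gja5 at 1, 0, 2 and 0 UMIs, too few to compare libraries. Ly6a carried most of this sum, at 198, 413, 604 and 634 CPM, while Dll4 ran the other way, at 93.9, 82.6, 55.1 and 38.2 CPM, and Sox17 likewise, at 55.5, 46.9, 40.6 and 34.5 CPM. T and NK markers reached at most 3.16 CPM, and B-lineage, monocyte and pericyte markers at most 101 CPM. Osteolineage markers stood at 270, 314, 185 and 97.1 CPM and megakaryocyte markers at 243, 91.3, 163 and 46.0 CPM. The osteolineage genes did not move together. Ibsp was at 210.5, 230.2, 16.6 and 6.48 CPM. Col1a1, a selecting gene, was at 6.97, 21.6, 112 and 47.8 CPM, and in other barcodes at 420, 773, 21390 and 6287 CPM. A Col1a1 UMI was found in 5.83%, 13.2%, 67.9% and 32.5% of members.

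Marker RNA of other cell types was present in members and differed between libraries. Whether the members made it or took it up from other cells was not tested. The 6 erythroid markers summed to 27130, 13100, 3568 and 347 CPM in members, highest without irradiation, and the same list stood at 172200, 132400, 89510 and 27550 CPM in the other barcodes. The median cell had 0.427%, 0.238%, 0.0493% and 0.0199% of its UMIs in haemoglobin genes. LepR+ stroma markers (Lepr, Cxcl12, Adipoq, Kitl and Ebf3) summed to 1389, 830, 733 and 340 CPM, and all 5 were detected in each library. The 8 neutrophil markers summed to 134, 390, 115 and 864 CPM. Most of this was S100a8 (51.2, 138, 51.2 and 301 CPM) and S100a9 (53.1, 152, 41 and 351 CPM), which are selecting genes. Camp, Ltf, Ngp, Elane, Mpo and Lcn2, which are not, were each higher in the Vegfc-deleted library of each pair. In the other barcodes the 8 markers summed to 15390, 36630, 34030 and 136100 CPM. Results that touch erythroid, stromal or neutrophil genes are therefore given with the level in LepR+ stromal cells (873, 547, 211 and 78 barcodes) or in all other barcodes. They were also computed on the 286, 355, 1517 and 683 members with under 1% of UMIs in haemoglobin genes and under 10 UMIs of Lepr and Cxcl12 together, called members with less RNA of other cells below. This alternative was chosen after seeing the data and adds no limit on neutrophil or bone RNA.

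**Figure D1:**
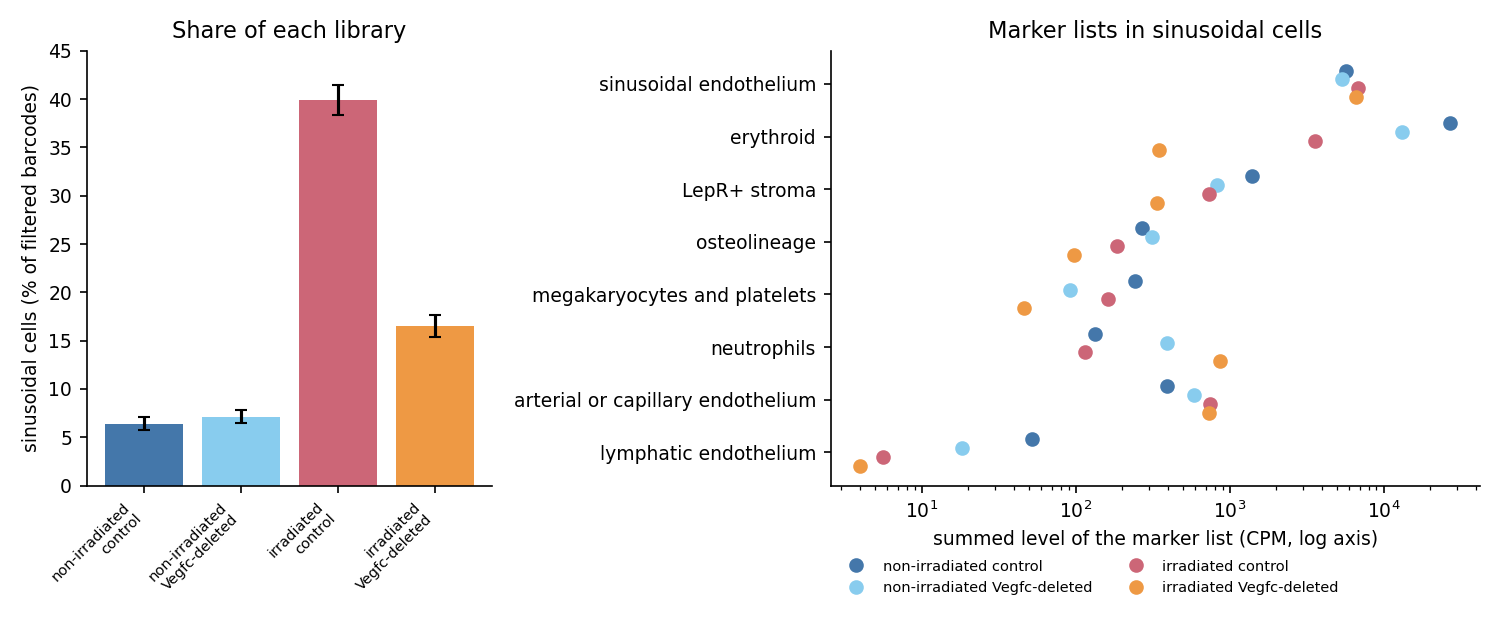
Left, the share of filtered barcodes that were sinusoidal cells in each library (%, bars, with exact 95% binomial intervals). Right, the summed level of 8 marker lists in those cells (CPM, log axis, 1 point per library). The irradiated control stands highest at 39.9%, and erythroid marker RNA ranges from 27130 CPM in the non-irradiated control to 347 CPM in the irradiated Vegfc-deleted library.

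Beyond the selecting genes, members carried further genes of the vessel lining. These genes were named by the ratio of member CPM to that of the other cells in the library where it was smallest. Plvap, which builds the diaphragms of fenestrae, stood at 1329, 1221, 1703 and 1508 CPM, and in LepR+ stromal cells it was at 1.44, 1.21, 4.25 and 1.61 CPM. For Kdr (VEGFR2, the main signalling receptor of VEGF-A) the levels were 1372, 1290, 1776 and 1657 CPM in members and 1.56, 0.607, 6.13 and 0 CPM in LepR+ stroma. Both genes were thus far above the stromal background in all libraries. Cldn5, a tight junction claudin, was at 1390, 1261, 1294 and 1203 CPM. Mmrn2, a matrix protein of endothelial surfaces, was at 692, 701, 863 and 801 CPM.

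The coagulation and fibrinolysis list summed to 5921, 5502, 6336 and 6173 CPM in members and to 6751, 6310, 6476 and 5606 CPM in LepR+ stroma, so as a whole it was not above stroma in 3 of 4 libraries. Tfpi, the inhibitor of tissue factor, was at 3452, 3109, 3292 and 3294 CPM, and Thbd (thrombomodulin) was at 942, 888, 1347 and 1174 CPM. F8, the coagulation factor VIII gene that endothelium supplies to plasma, was at 772, 885, 712 and 939 CPM and at 6.42, 6.65, 27 and 22.6 CPM in all other barcodes. Tfpi differed by at most 0.15 on the log2 scale in any of the 4 contrasts described below. Gpihbp1, which docks lipoprotein lipase on the vessel wall, was at 415, 413, 593 and 729.8 CPM. The fatty acid carrier Fabp4 reached 10870, 14310, 16040 and 22210 CPM, and was at 71.4, 45.1, 2388 and 4129 CPM in LepR+ stroma.

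Several genes less often linked with marrow vessels marked the members. Ubd, a ubiquitin-like modifier (FAT10), was at 916, 1149, 808 and 1036 CPM and at 3.7, 6.02, 28.1 and 29.7 CPM in the other barcodes. Abcc9 and Kcnj8, the regulatory and pore subunits of an ATP-sensitive potassium channel, were at 1115, 1000, 1490 and 1314 CPM and 465, 456, 411 and 368 CPM. Fgf23, a phosphate-lowering hormone best known from osteocytes, was at 114, 218, 124 and 259 CPM, and at 0.12, 0, 0.472 and 0 CPM in LepR+ stroma. Rgs4, a regulator of G protein signalling, was at 1056, 1040, 1379 and 1161 CPM, the cytochrome P450 gene Cyp4b1 at 556, 469, 759.7 and 863 CPM, and Gpr182, an atypical chemokine receptor of sinusoids, at 509.5, 399.5, 544 and 489.7 CPM. Each of these was at least 10 times its level in the other barcodes in all 4 libraries.

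**Figure D2:**
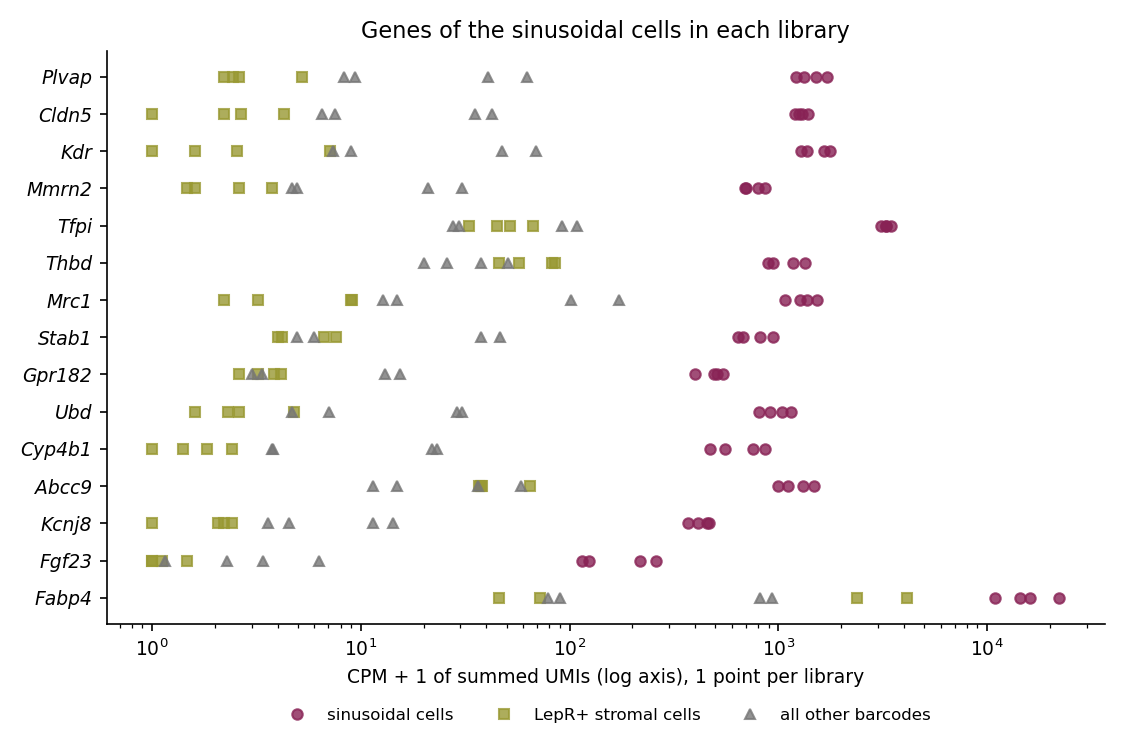
Level of 15 genes (CPM + 1, log axis) in sinusoidal cells, LepR+ stromal cells and all other barcodes, with 1 point per library. In each row the 4 sinusoidal values lie to the right of all other values. The 4 libraries lie close together for Tfpi and Cldn5 and are split by genotype for Fgf23.

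Differences between libraries were read as log2 ratios of CPM with 0.5 counts added. Fold values that rest on 3 or fewer UMIs in a library are plain ratios of CPM without these added counts, and so differ from the log2 ratios. A gene counted as measured with at least 30 UMIs and 20 CPM in the library where it was higher. The selecting genes and mitochondrial genes were left out. With irradiation in controls, 200 of 6932 measured genes were at least 2-fold higher (2.89%) and 307 at least 2-fold lower (4.43%). In Vegfc-deleted mice 199 of 6850 were at least 2-fold higher (2.91%) and 316 lower (4.61%). The 2 irradiation contrasts share no library. Of 6616 genes measured in both, 175 and 177 were 2-fold higher and 101 were so in both, which is 57.7% and 57.1% of each list. For lower genes the numbers were 247, 302 and 197, or 79.8% and 65.2%. The median log2 ratio over all measured genes was 0.16 in controls and 0.14 in Vegfc-deleted mice, and trimmed mean scaling (TMM) moved it to 0.02 in both. With TMM the counts were 126 higher and 380 lower in controls, against 149 and 357 with the deletion, so list medians below are to be read against these shifts. Counts of list genes are likewise to be read against the shares of all measured genes in the same contrast.

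Among all genes, those with the highest ratios in both genotypes spanned several functions. Fn1, which encodes the matrix glycoprotein fibronectin, was at 1.34, 1.7, 81.4 and 117 CPM, low without and high with irradiation. Its log2 ratios were 5.79 (4.70 to 7.55) in control and 6.01 (5.06 to 7.43) in Vegfc-deleted members, or 7.37 and 5.12 after thinning. After thinning each cell to 3000 UMIs, 0%, 0.767%, 13.9% and 20.2% of members held a Fn1 UMI (unthinned 1.46%, 1.78%, 23.8% and 34.2%), beside 2.56%, 3.14%, 4.66% and 12.7% of LepR+ stromal cells. Here and below, a share of 0 (3 cells as the limit) allows up to 0.888%, 0.767%, 0.195% and 0.453% of thinned members and 0.365%, 0.588%, 1.55% and 4.23% of thinned LepR+ stroma. In all other barcodes Fn1 stood at 20.9, 67.9, 158 and 137 CPM, so it was higher there with irradiation as well.

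Car4, a carbonic anhydrase anchored to the surface of capillary endothelium, had 1, 0, 1028 and 402 UMIs. It was 211-fold higher (37.8 to 8344) with irradiation in controls, from 1 UMI without it, and at least 91.6-fold higher in Vegfc-deleted mice, against a floor of 3 UMIs. In thinned members 0%, 0%, 12% and 13.6% held a UMI, and in thinned LepR+ stroma 0%, 0%, 0% and 1.41%. Before thinning the shares of members were 0.291%, 0%, 26.9% and 25.8%.

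Tgfa, which encodes an EGF receptor ligand, was at 19.8, 16.3, 124 and 107 CPM, with log2 ratios of 2.63 (2.31 to 2.99) in control and 2.71 (2.35 to 3.1) in Vegfc-deleted members. Plau, the urokinase plasminogen activator, was at 17.7, 11.4, 105 and 50.6 CPM, with ratios of 2.56 (2.21 to 2.94) in control and 2.14 (1.70 to 2.62) in Vegfc-deleted members. Both stood highest in the irradiated libraries. Ephx1, an epoxide hydrolase, was at 28.2, 25.5, 126 and 101 CPM, and Fkbp11, a secretory pathway folding protein, at 12.9, 15.8, 66.7 and 89.5 CPM. Gbp4, an interferon-induced GTPase, was at 21.2, 22.6, 97.3 and 109.6 CPM, with ratios of 2.19 (1.87 to 2.54) in control and 2.27 (1.96 to 2.61) in Vegfc-deleted members. The unannotated transcript Gm26870 was at 10.2, 6.8, 99.4 and 61.1 CPM. All 4 were more than 3-fold higher in each irradiated library than in its non-irradiated counterpart.

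Targets of p53, the transcription factor activated by DNA damage, were higher as a group with irradiation. Of 18 measured targets 10 were at least 2-fold higher and 0 lower in controls (median log2 1.45), and of 17 in Vegfc-deleted mice 9 were higher and 1 lower (1.10). These shares lie above the 2.89% and 2.91% of all genes. Phlda3, an inhibitor of AKT at the membrane, was at 11.5, 8.98, 119 and 114 CPM, with log2 ratios of 3.35 (2.93 to 3.84) in control and 3.64 (3.18 to 4.18) in Vegfc-deleted members. Zmat3, an RNA-binding protein induced by p53, was at 9.92, 10.9, 99.2 and 78 CPM, with ratios of 3.30 (2.85 to 3.83) in control and 2.82 (2.39 to 3.31) in Vegfc-deleted members. Eda2r, a receptor of the TNF receptor family, had 4, 3, 538 and 129 UMIs, or 1.07, 0.729, 29.6 and 21.4 CPM. In Vegfc-deleted mice it was 29.4-fold higher (9.84 to 144), from 3 UMIs.

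The p53 targets did not move as one. Ccng1 (cyclin G1) was at 16.9, 25.3, 106 and 94.3 CPM, the death effector Bax at 91.2, 96.7, 273 and 298 CPM and the stress cytokine gene Gdf15 at 5.63, 2.67, 45.8 and 23.4 CPM. All 3 were more than 2-fold higher with irradiation in both genotypes. In controls, the Ccng1 ratio of 2.63 was 1.88 after thinning, and that of Phlda3 was 2.68. Cdkn1a, the cell cycle inhibitor p21, was at 604, 734, 1051 and 688 CPM, with ratios of 0.80 (0.74 to 0.86) in control and -0.09 (-0.16 to -0.03) in Vegfc-deleted members. Mdm2, which degrades p53, was at 68.4, 57.3, 128 and 77.4 CPM, and Plk2, a stress kinase, at 469.8, 282, 378 and 155 CPM. Cdkn1a and Mdm2 were below 2-fold in both contrasts, and Plk2 was lower rather than higher with irradiation. The median thinned cell held 4, 4, 8 and 5 UMIs of the list, so the irradiated control stood above the other libraries. Cells with 10 or more such UMIs made up 9.47%, 6.39%, 35.2% and 18.9% of members. In LepR+ stroma the list summed to 904, 1025, 1902 and 1774 CPM, against 1588, 1531, 2763 and 2003 CPM in members.

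Promoters of p53 targets were searched for the p53 half-site in the 250 bases before the transcription start, on both strands, in RefSeq sequences of GRCm38.p6. A match was found for 8 of 18 targets with a sequence (44.4%) and for 8.20% of all 27025 genes with one. Stretches of 4 genes are shown, since 3 of them (Ccng1, Aen and Bax) were over 2-fold higher with irradiation in both genotypes while Cdkn1a, with 2 matches, was not. Phlda3, Eda2r, Gdf15 and Sesn2, also over 2-fold higher in both genotypes, had 0 matches. The 4 stretches shown were picked from genes with a match. These stretches are written 5′ to 3′ along the gene's strand, and capitals mark the matched bases.
Cdkn1a (chr17:29090891-29090952, plus strand): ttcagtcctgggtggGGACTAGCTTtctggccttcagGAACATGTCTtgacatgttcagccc
Ccng1 (chr11:40755442-40755491, minus strand): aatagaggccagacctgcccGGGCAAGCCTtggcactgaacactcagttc
Aen (chr7:78895917-78895966, plus strand): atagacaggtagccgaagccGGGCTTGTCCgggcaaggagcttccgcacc
Bax (chr7:45467070-45467119, minus strand): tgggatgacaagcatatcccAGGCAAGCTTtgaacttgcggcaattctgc
Aen, a nuclease induced in apoptosis, was at 12.1, 8.5, 37.7 and 33.2 CPM. A match describes letters in the sequence and not a bound site.

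**Figure D3:**
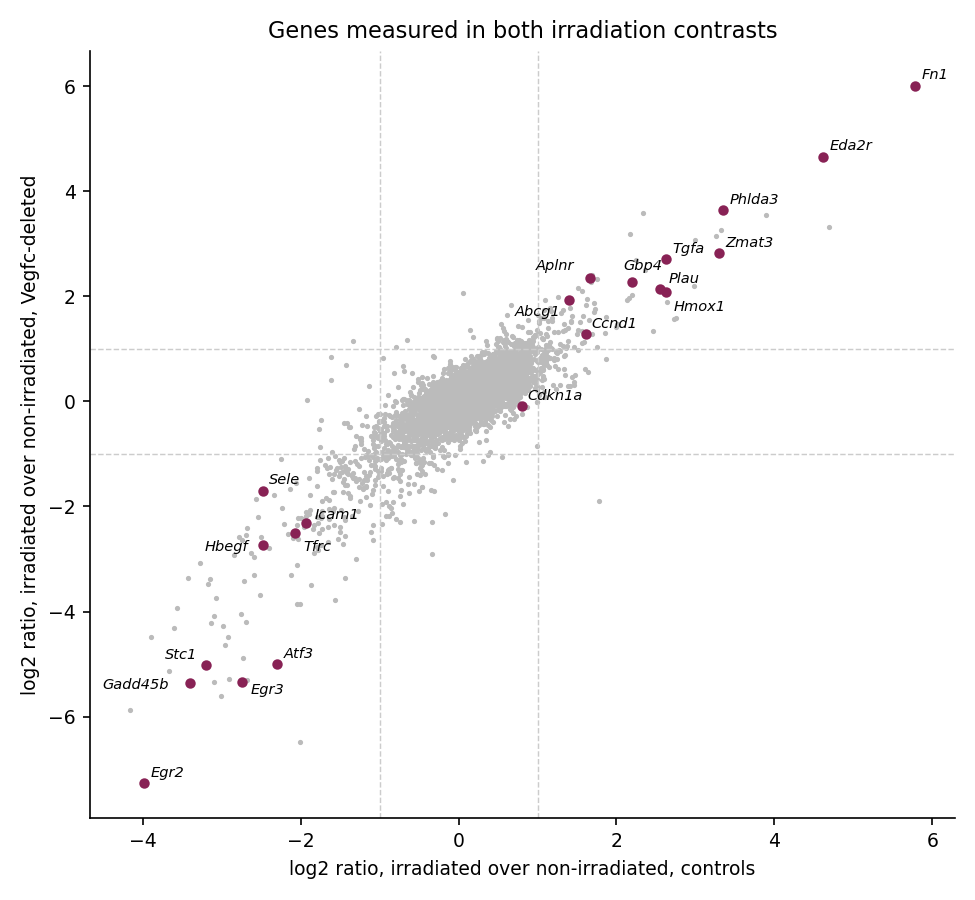
Log2 ratio of CPM, irradiated over non-irradiated, in controls (x axis) and Vegfc-deleted mice (y axis) for 6614 genes measured in both contrasts, with dashed lines at 2-fold. A further 2 genes with 0 UMIs in a library are not drawn. Fn1 is at the upper right, followed by Eda2r and Phlda3, and the immediate early genes Egr2, Egr3, Gadd45b and Atf3 lie at the lower left, lower in Vegfc-deleted mice than in controls.

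Interferon-response genes were mixed. In controls 8 of 22 measured genes were at least 2-fold higher and 2 lower (median log2 0.78), and in Vegfc-deleted mice 5 of 24 were higher and 2 lower (0.58). Under TMM the higher counts were 4 and 3. Ifit3, which binds other antiviral proteins, was at 9.65, 18.7, 31.4 and 45.8 CPM, and Bst2 (tetherin) at 319.9, 402, 545 and 761 CPM. Against these, Irf1 was at 456, 316, 151 and 113 CPM, with ratios of -1.60 (-1.69 to -1.51) in control and -1.49 (-1.62 to -1.35) in Vegfc-deleted members, and the chemokine gene Cxcl10 at 262, 188, 93.1 and 78.9 CPM. Both were lower in the irradiated libraries. Abundant genes of the list, such as Ifitm3 (980.2, 1188, 905 and 1105 CPM) and Iigp1 (1239, 1015, 802 and 914 CPM), were not higher with irradiation. The summed level of the list was 4324, 4039, 4321 and 4659 CPM. It was 3858, 4992, 9274 and 7541 CPM in LepR+ stroma.

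The core of the interferon-stimulated response element, GAAANNGAA, was found on either strand for 12 of 21 list genes with a sequence (57.1%) and for 8.18% of all genes. The sequences of Ifit3 and Gbp7 are shown because they carry 3 matches and 1 match and both genes were over 2-fold higher with irradiation in both genotypes. The Ifit3 ratio in Vegfc-deleted members, 1.29, was 0.99 after thinning. Cxcl10, 2-fold lower in both genotypes, also carried 1 match. Oasl2 and Xaf1, 2-fold higher in controls, had 0 matches. Capitals mark the matches, here as the reverse complement.
Ifit3 (chr19:34583359-34583450, plus strand): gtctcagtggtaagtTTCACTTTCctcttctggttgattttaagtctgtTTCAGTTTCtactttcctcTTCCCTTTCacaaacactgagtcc
Gbp7 (chr3:142530264-142530312, plus strand): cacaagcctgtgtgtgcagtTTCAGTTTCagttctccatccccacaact
Gbp7, another interferon-induced GTPase, was at 83.1, 96.9, 178 and 195 CPM, with ratios of 1.10 (0.93 to 1.27) in control and 1.01 (0.84 to 1.18) in Vegfc-deleted members. Under TMM these were 0.96 and 0.89, below 2-fold.

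Genes of antigen presentation are given by class, and a difference between the classes was not tested. None of 14 measured genes of MHC class I presentation differed by 2-fold with irradiation (median log2 0.37 in controls and 0.19 in Vegfc-deleted mice). Beside the shares of all genes given above, this count of 0 is near the background and is no result about class I genes. B2m, the shared light chain, was at 2118, 2546, 2861 and 2693 CPM. Psmb9, a subunit of the immunoproteasome, was at 54.7, 83.3, 103 and 130.3 CPM. Of MHC class II, 2 genes were measured and both were higher in each genotype. Cd74, the invariant chain, was at 6.17, 10.7, 49.7 and 49.3 CPM, with ratios of 2.98 (2.42 to 3.67) in control and 2.19 (1.75 to 2.70) in Vegfc-deleted members, the latter 3.1 after thinning, and H2-Ab1 at 3.75, 10.2, 21.4 and 25.9 CPM. All other barcodes held Cd74 at 79.8, 195, 480 and 1494 CPM, so member levels were lower and moved in the same direction as theirs. Whether the class II RNA came from the members was not tested.

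Among genes of haem handling, Hmox1, which breaks haem down, was at 106, 82.1, 653 and 347 CPM, with ratios of 2.62 (2.48 to 2.77) in control and 2.08 (1.91 to 2.25) in Vegfc-deleted members, and a UMI was found in 21.6%, 21.7%, 48.7% and 36.6% of thinned members (unthinned 58.3%, 51.8%, 75.6% and 61.8%). In LepR+ stroma Hmox1 was at 36.5, 35, 55.2 and 35.4 CPM. Slc40a1 (ferroportin, the iron exporter) was at 35.1, 37.4, 119 and 77.2 CPM, with ratios of 1.76 (1.51 to 2.03) in control and 1.04 (0.78 to 1.32) in Vegfc-deleted members, the latter 0.76 without likely doublets. Tfrc, the transferrin receptor, was at 102, 64.1, 24.3 and 11.3 CPM, with ratios of -2.08 (-2.28 to -1.88) in control and -2.50 (-2.91 to -2.12) in Vegfc-deleted members, against 529.7, 492, 412 and 192 CPM in all other barcodes, which include erythroblasts. Over the list 3 of 18 measured genes were higher and 3 lower in controls, against 4 and 3 with the deletion. The list's median of 0.21 in controls became -0.0021 under TMM.

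Scavenging genes had median log2 ratios of 0.36 and 0.40 with irradiation, and lysosomal genes 0.30 and 0.16. The lowest measured scavenger gene, Clec14a in Vegfc-deleted mice, had a ratio of -0.91 (-1.02 to -0.79). Fcgr2b, the IgG receptor by which sinusoids clear immune complexes, was at 399, 361, 892 and 788 CPM, with ratios of 1.16 (1.08 to 1.24) in control and 1.13 (1.04 to 1.21) in Vegfc-deleted members. Clec1b, which binds podoplanin, was at 23.6, 13.4, 50.9 and 51.5 CPM, and it was at 49, 47.1, 42.1 and 11 CPM in other barcodes. These were the 2 genes of 11 measured that were 2-fold higher, and 0 were lower. The Clec1b ratio in controls, 1.10, was 0.96 under TMM and 2.78 without likely doublets. Mrc1, the mannose receptor, was at 1275, 1078, 1530 and 1366 CPM, and Stab1, the sister gene of Stab2, at 678, 642, 947 and 812 CPM. Both stayed within 1.5-fold between compared libraries. Of 15 lysosomal genes 2 were 2-fold higher in controls, namely Ctsd (535, 591, 1243 and 1024 CPM), which encodes cathepsin D, and Hexa (67.6, 73.8, 136 and 151 CPM), a subunit of a hexosaminidase. In Vegfc-deleted mice 1 was higher, Hexa. Under TMM the Hexa ratios were 0.87 and 0.92.

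None of 14 measured genes of junctions and fenestrae passed 2-fold in any of the 4 contrasts, with medians of 0.24 and 0.17 for irradiation. With the shares of all genes given above, a count of 0 is near the background and is no result about barrier genes. Esam, an adhesion molecule of endothelial junctions, was at 478, 406, 652 and 574 CPM. Ctnnb1 (beta-catenin) was at 405, 455, 305 and 296 CPM, lower in both irradiated libraries.

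Matrix genes gave different counts in the irradiation contrasts, a difference that was not tested. In controls 5 of 22 measured genes were 2-fold higher, Fn1, Sparcl1, Col18a1 and both collagen IV chains, and 1 was lower. In Vegfc-deleted mice 1 was higher, Fn1, and 5 were lower. Col4a2, a chain of basement membrane collagen, was at 178, 205, 422 and 359.5 CPM, with ratios of 1.25 (1.13 to 1.36) in control and 0.81 (0.69 to 0.92) in Vegfc-deleted members. Adamts1, a secreted protease, was at 2198, 1761, 1590 and 707 CPM, with ratios of -0.47 (-0.50 to -0.43) in control and -1.32 (-1.37 to -1.26) in Vegfc-deleted members. The Sparcl1 ratio in controls, 1.77, was 0.75 after thinning and 0.46 with a threshold of 2 sinusoidal UMIs. The median of the list in Vegfc-deleted mice was 0.04 and became -0.07 under TMM.

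Leukocyte adhesion genes were split. Sele (E-selectin, on which haematopoietic cells roll) was at 462, 384, 82.9 and 118 CPM, with ratios of -2.48 (-2.58 to -2.38) in control and -1.70 (-1.83 to -1.57) in Vegfc-deleted members. Icam1, the ligand of leukocyte integrins, was at 749, 743, 197 and 149.8 CPM, with ratios of -1.93 (-2.00 to -1.85) in control and -2.31 (-2.42 to -2.20) in Vegfc-deleted members. Both were lower in the irradiated libraries of each genotype. Vcam1 was at 1647, 1981, 1359 and 1729 CPM, Selp (P-selectin) at 611, 526, 487 and 456 CPM and Ackr1, a chemokine-binding protein of venules, at 633, 660.3, 873 and 1095 CPM. These 3 stayed within 2-fold. A Sele UMI was present in 55.6%, 52.4%, 18.4% and 24% of thinned members (unthinned 79%, 79.4%, 40.01% and 43%), and in 0.243%, 0%, 0% and 0% of LepR+ stroma.

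Immediate early and handling-stress genes, which are switched on within minutes of a stimulus and also by tissue digestion, were mostly lower with irradiation. All 28 list genes were measured. In controls 0 were 2-fold higher and 18 lower (median log2 -1.48), and in Vegfc-deleted mice 0 and 27 (-2.46). Fos was at 5306, 5481, 2955 and 1260 CPM, Jun at 4123, 4807, 2927 and 1998 CPM and Egr1 at 3832, 3626, 954 and 251 CPM, all 3 highest without irradiation and lowest in the irradiated Vegfc-deleted library. Atf3, a stress transcription factor, was at 385, 296, 78.4 and 9.13 CPM, with ratios of -2.30 (-2.40 to -2.19) in control and -5.00 (-5.43 to -4.63) in Vegfc-deleted members. Egr2 had 222, 157, 68 and 1 UMIs, and its irradiated level in Vegfc-deleted mice, from 1 UMI, was 229.6-fold lower (40.6 to 9126).

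The list was lower with irradiation outside the members as well. The list summed to 36930, 36860, 20460 and 10660 CPM in sinusoidal cells and to 42370, 45160, 19930 and 10130 CPM in LepR+ stroma. All other barcodes had 13080, 8134, 7056 and 3465 CPM. The part of tissue handling in this result was not tested. A cAMP response element (TGACGTCA) was found on either strand of the same 250 bases for 3 of 25 list genes with a sequence (12%, against 1.77% of all genes) and a CArG box for 2 (8%, against 1.62%). The stretches with a CArG box are shown for these 2 genes, with the match in capitals. Zfp36 encodes a protein that destabilises cytokine mRNA.
Egr2 (chr10:67537474-67537523, plus strand): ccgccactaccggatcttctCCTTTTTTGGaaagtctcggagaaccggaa
Zfp36 (chr7:28379257-28379306, minus strand): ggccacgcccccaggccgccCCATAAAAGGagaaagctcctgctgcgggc

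Outside that list, further genes had low ratios in both genotypes. Stc1 (stanniocalcin 1, a secreted glycoprotein) was at 57.7, 83.8, 6.28 and 2.49 CPM, with ratios of -3.20 (-3.54 to -2.87) in control and -5.03 (-5.92 to -4.33) in Vegfc-deleted members. Myc was at 93.9, 52.9, 15.1 and 7.14 CPM, and Rasgef1b, an exchange factor of small GTPases, at 206, 157, 30.9 and 25.2 CPM. Nfkbia, the inhibitor of NF-kappaB, was at 961, 848, 182 and 122 CPM, and Zc3h12a, a ribonuclease that limits cytokine mRNA, at 106, 77, 23.7 and 13.3 CPM. The feedback genes of TGF-beta and BMP signalling had medians of -0.66 and -0.46, with 4 of 10 and 3 of 9 measured genes 2-fold lower and 0 higher. Of all genes 4.43% and 4.61% were 2-fold lower and 2.89% and 2.91% higher. Among the feedback genes, Skil was at 184, 144, 65.1 and 55.6 CPM. Serpine2, a protease inhibitor, was at 171, 116, 54.7 and 31.7 CPM in members but at 4023, 3737, 1917 and 2049 CPM in LepR+ stroma. On members with less RNA of other cells its ratios were -0.84 and -0.18. The shear-stress factor Klf2 was at 1674, 1137, 747 and 419 CPM, with ratios of -1.16 (-1.21 to -1.12) in control and -1.44 (-1.51 to -1.37) in Vegfc-deleted members.

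Glycolysis and hypoxia genes had medians of -0.49 and -0.41, with 2 and 3 of 13 measured genes 2-fold lower and 0 higher. Of all genes 4.43% and 4.61% were 2-fold lower and 2.89% and 2.91% higher, so a count of 0 higher is near the background. Ldha, which makes lactate, was at 200.1, 203, 117 and 104 CPM, and Adm (adrenomedullin) at 26, 21.4, 8.92 and 8.63 CPM. In the secretory pathway Xbp1, the transcription factor of the unfolded protein response, was at 927, 1044, 1841 and 1999 CPM, while the chaperone Hspa5 was at 1185, 984, 867 and 746 CPM and the stress factor Ddit3 at 72.7, 38.9, 19.8 and 11.3 CPM. Xbp1 was higher and Hspa5 and Ddit3 lower with irradiation in both genotypes. Of the 22 folding genes 1 was 2-fold higher in each genotype, Fkbp11, and 1 and 2 were lower, beside the same shares of all genes. Abcg1, a cholesterol exporter, was at 79.9, 56.1, 210.2 and 215 CPM, with ratios of 1.39 (1.23 to 1.57) in control and 1.93 (1.73 to 2.15) in Vegfc-deleted members. The apoptosis list had 0 of 14 genes 2-fold higher, which is near the background. In it 2 and 3 genes were lower, among them Birc3, an inhibitor of cell death, at 164, 195, 39.9 and 31.9 CPM.

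Niche and angiocrine genes, which act on blood stem cells and vessels, gave 2 of 19 genes 2-fold higher and 4 lower in controls, and 2 and 6 of 18 in Vegfc-deleted mice, beside 2.89% and 4.43%, and 2.91% and 4.61%, of all genes. Cxcl12, the chemokine that holds stem cells in the marrow, was at 1063, 574, 459 and 180.3 CPM in members. In LepR+ stroma it was at 23340, 22000, 22050 and 19340 CPM, but those cells were chosen partly by their Cxcl12 UMIs. The members with less RNA of other cells were chosen partly on Cxcl12, so no ratio of it is read from them. With only genes at 0.5 times the level of the other barcodes or more, 2 were higher and 2 lower of 14 in each genotype, and the medians changed from -0.34 and -0.15 to 0.02 and 0.07. Hbegf, another EGF receptor ligand, was at 66.8, 23.6, 12 and 3.49 CPM, opposite in direction to Tgfa.

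Cell cycle genes depended on which cells were kept. In controls 1 of 17 measured genes was 2-fold higher with irradiation and 7 lower (median -0.79), and in Vegfc-deleted mice 3 of 14 were higher and 1 lower (0.71). Without barcodes scored as likely doublets (31, 33, 66 and 11 members), the control median was 0.61, with 2 of 12 higher and 0 lower. Without members holding RNA of other cells it was 1.09, with 7 of 10 higher and 0 lower. In Vegfc-deleted mice 9 of 13 and 9 of 12 were higher and 0 lower under these alternatives. Ccnd1 (cyclin D1), which drives entry into the cycle, was at 80.5, 81.3, 246 and 198 CPM, with ratios of 1.61 (1.44 to 1.78) in control and 1.28 (1.11 to 1.46) in Vegfc-deleted members, and at 7.64, 8.03, 43.9 and 59 CPM in other barcodes. Mki67, present in dividing cells, was at 209, 96.4, 68.7 and 49.3 CPM in members and at 1186, 1215, 688 and 508 CPM in other barcodes. In thinned members 13.3%, 12%, 4.23% and 4.23% had a Mki67 UMI (unthinned 32.1%, 21.1%, 8.63% and 7.31%), beside 16.7%, 9.02%, 4.14% and 2.82% in LepR+ stroma, so no cycling is read from these shares. The Mki67 ratio with irradiation in controls, -1.60, was 0.22 on members with less RNA of other cells.

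**Figure D4:**
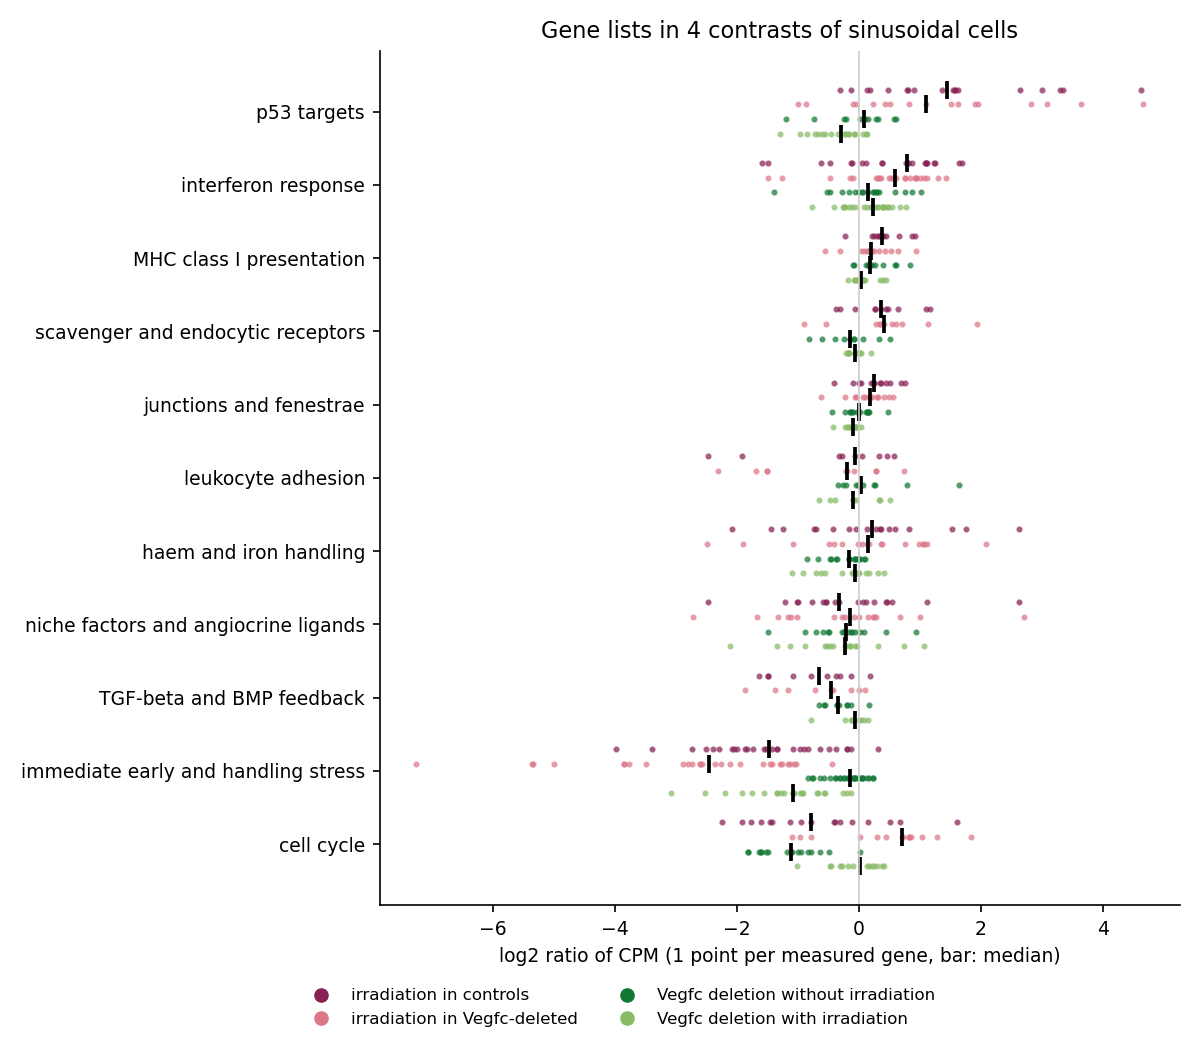
Log2 ratios of measured genes (x axis, 1 point per gene, black bar the median) in 11 gene lists for the 4 contrasts. The p53 medians lie at 1.45 and 1.10 for irradiation, the immediate early medians at -1.48 and -2.46, and the cell cycle medians at -0.79 and 0.71.

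Fewer genes passed 2-fold between genotypes than between irradiated and non-irradiated members. Vegfc itself had 36, 1, 77 and 2 UMIs in members, or 9.65, 0.243, 4.24 and 0.332 CPM, and its level in LepR+ stroma was 159, 17.4, 143 and 22.5 CPM. It was 39.8-fold lower (6.69 to 1613) in the deleted library of the non-irradiated pair and 12.8-fold lower (3.42 to 107) in that of the irradiated pair, from 1 and 2 UMIs. The log2 ratios, which carry 0.5 added counts, were -4.75 and -3.36 over all members and -1.84 and -0.34 on members with less RNA of other cells. The sources used here do not give the deleted exons, and 3' tags need not lie in them.

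Without irradiation, 19 of 6566 measured genes were 2-fold higher in Vegfc-deleted members (0.289%) and 88 lower (1.34%). With irradiation 16 of 6823 were higher (0.235%) and 83 lower (1.22%). The count of 88 became 45 without likely doublets, 32 without members holding RNA of other cells, and 16 with only genes at 0.5 times the other barcodes or more. Of 6223 genes measured in both genotype contrasts, which share no library, 36 and 76 were 2-fold lower and 9 in both (25% and 11.8%). The haemoglobin genes Hbb-bs, Hbb-bt and Hba-a1 were among those 9. Hbb-bt was at 4643, 1931, 702 and 65.6 CPM in members and at 25950, 20820, 16630 and 5405 CPM in other barcodes. The higher lists held 11 and 6 genes, with 2 in both (18.2% and 33.3%). These 2 were the neutrophil genes Camp (10.2, 36.2, 5.73 and 60.1 CPM) and Ngp (8.045, 23.3, 6.99 and 67.25 CPM). Other barcodes held Camp at 1475, 3653, 2192 and 11090 CPM. Whether the members made this RNA was not tested.

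Aplnr is the receptor of apelin. Among genes at 50 CPM or more and at least 0.5 times the other barcodes' level, Aplnr ranked first of those lower in both genotype contrasts. It stood at 74.3, 22.1, 236 and 113 CPM, lower in Vegfc-deleted than in control members with and without irradiation, and higher with irradiation in each genotype. The genotype log2 ratios were -1.74 (-2.11 to -1.40) without irradiation and -1.07 (-1.19 to -0.95) with it, and the irradiation ratios 1.67 (1.5 to 1.85) in control and 2.34 (2.03 to 2.68) in Vegfc-deleted members. An Aplnr UMI was found in 15.4%, 4.86%, 38.7% and 17.4% of thinned members (unthinned 31.8%, 10.9%, 57.4% and 30.1%) and in 0.122%, 0%, 1.04% and 0% of thinned LepR+ stroma. The chemokine gene Cxcl9 was at 439.8, 168, 767 and 449.5 CPM, with genotype ratios of -1.39 (-1.52 to -1.26) without irradiation and -0.77 (-0.83 to -0.71) with it. In LepR+ stroma Cxcl9 was at 243, 434, 2612 and 998 CPM, higher than in members in all libraries but the non-irradiated control.

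Further genes named as lower in both contrasts include some below 2-fold in 1 of them and Tsc22d2, which was below 2-fold in both. Bcl6b, an endothelial repressor, was at 74.5, 33.3, 115 and 73.1 CPM, with ratios of -1.16 (-1.47 to -0.86) without irradiation and -0.66 (-0.81 to -0.51) with it, the former -1.90 after thinning. Klf6, an injury-induced zinc finger factor, was at 959, 568, 872 and 418 CPM, and the pseudokinase gene Trib1 at 282, 181, 167 and 83.2 CPM. Plk2, named above among p53 targets, had ratios of -0.73 (-0.84 to -0.63) without irradiation and -1.29 (-1.39 to -1.19) with it. Zfp703 was at 92, 55.6, 65.9 and 21.1 CPM and Tsc22d2 at 393, 221, 177 and 107 CPM.

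Among genes at 50 CPM or more and at least 0.5 times the other barcodes' level, Fgf23 led those higher in both genotype contrasts. Its ratios were 0.93 (0.76 to 1.10) without irradiation and 1.07 (0.97 to 1.16) with it. A Fgf23 UMI was present in 13.6%, 29.9%, 23.2% and 37.6% of thinned members (unthinned 26.2%, 40.1%, 43.1% and 56.7%), and in at most 0.122% of thinned LepR+ stroma. Thrsp, a regulator of lipid synthesis, was at 114, 172, 169 and 270.3 CPM, with ratios of 0.60 (0.42 to 0.77) without irradiation and 0.68 (0.59 to 0.77) with it. H2-Q7, a class I gene with close paralogs, was at 163, 246, 212 and 286 CPM. The growth factor gene Igf1 was at 46.9, 63.6, 46.4 and 77 CPM and the splicing regulator gene Tia1 at 46.7, 64.1, 78.1 and 110.1 CPM. Among these genes Fgf23 alone passed 2-fold, with irradiation. Fabp4 was higher in the deleted library of each pair, with ratios of 0.40 (0.38 to 0.41) without irradiation and 0.47 (0.46 to 0.48) with it.

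In the immediate early list the genotypes differed more often with irradiation, although this difference of contrasts was not tested. Of 28 measured genes 0 were 2-fold higher or lower without irradiation (median -0.15), and of 24 with irradiation 0 were higher and 14 lower (-1.08). The p53 list had medians of 0.09 and -0.29, with 1 of 12 and 1 of 18 genes 2-fold lower and 0 higher. The cell cycle list had 10 of 17 genes lower without irradiation (median -1.11), but 2 of 8 without likely doublets and 1 of 6 without members holding RNA of other cells. With irradiation 1 of 14 was lower. The interferon list had medians of 0.14 and 0.23 and at most 1 gene past 2-fold in either direction.

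VEGF receptors were near level between genotypes. Kdr, given above, had genotype ratios of -0.09 (-0.14 to -0.03) without irradiation and -0.10 (-0.13 to -0.07) with it. Flt1 (VEGFR1) was at 436, 537, 427 and 400.2 CPM and the coreceptors Nrp1 at 303, 298, 452 and 444 CPM and Nrp2 at 442, 393, 628 and 528 CPM. Nrp2, which binds the Vegfc protein, had ratios of -0.17 (-0.27 to -0.07) without irradiation and -0.25 (-0.31 to -0.19) with it. Flt4, a selecting gene, was at 704, 578, 1014 and 832 CPM. The ligand gene Vegfa was at 113, 118, 43.7 and 34 CPM, lower with irradiation, and Vegfb at 27.6, 27, 34.7 and 40.02 CPM. Of 21 measured vascular receptor and signalling genes 0 were 2-fold higher and 1 lower in each genotype contrast, Aplnr.

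Of 22 measured endothelial transcription factors 0 were 2-fold higher and 2 lower without irradiation, Bcl6b and Prox1, the lymphatic factor at 50.1, 16.3, 4.62 and 3.98 CPM. With irradiation 0 of 21 passed it. Nr2f2, the factor of venous fate, was at 549.8, 669, 613 and 659 CPM and Sox18 at 319, 298, 529.9 and 486 CPM. Klf2, given above, had genotype ratios of -0.56 (-0.61 to -0.50) without irradiation and -0.84 (-0.90 to -0.77) with it. Of 16 lipid genes 0 differed by 2-fold in either genotype contrast, and of 11 scavenger genes 0. Since 0.289% and 1.34%, and 0.235% and 1.22%, of all genes did, these counts are near the background.

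Members of 1 library also differed among themselves. After thinning to 3000 UMIs, 338, 391, 1536 and 662 members remained, and 5, 3, 51 and 36 were too shallow. The Fano factor (variance over mean of UMIs, which is 1 for pure counting noise) had a median over 2179 genes of 1.13, 1.11, 1.10 and 1.09. Genes far above it in every library included Hbb-bs (242, 181, 214 and 14.4) and Cxcl12 (63.6, 37.9, 36.4 and 12.8). Both had a higher level in the other barcodes than in members in every library, and which cells made this RNA was not tested. Of genes at home in the members, Fabp4 had Fano factors of 12.4, 10, 9 and 12.1, and Ubd 4.42, 3.44, 5.44 and 3.99. Cxcl9 had 14.2, 3.71, 11.6 and 8.07, and a UMI in 35.2%, 24%, 57.4% and 37.8% of thinned members (unthinned 54.2%, 45.9%, 76.3% and 61.6%). The early genes Jun (5.40, 6.76, 5.30 and 4.38) and Egr1 (5.60, 6.26, 6.07 and 3.95) were also uneven from cell to cell.

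Per thinned cell, the immediate early list gave medians of 111, 109, 62 and 30 UMIs. Its 10th to 90th percentiles were 53.4 to 181, 29 to 174, 23.5 to 103 and 8 to 59, so the irradiated distributions were shifted as a whole and still overlapped the others. The lipid list, led by Fabp4, had medians of 43.5, 57, 58 and 78 UMIs, highest in the irradiated Vegfc-deleted library. The interferon list stayed at 11, 10, 10 and 11, with 10th to 90th percentiles of 4 to 25.3, 4 to 21, 4.5 to 23 and 5 to 25.

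**Figure D5:**
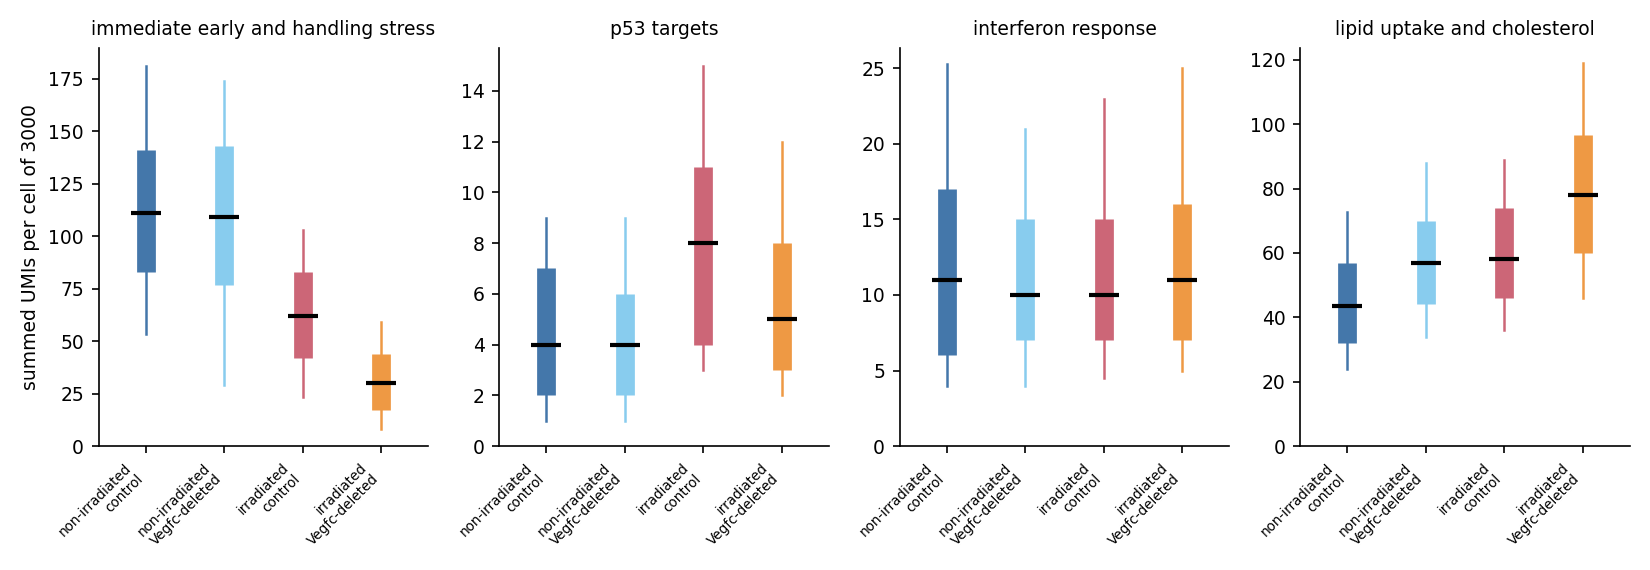
Summed UMIs per sinusoidal cell, each thinned to 3000 UMIs, for 4 gene lists in the 4 libraries (thin line 10th to 90th percentile, thick bar 25th to 75th, black mark the median). The immediate early medians step from 111 to 30, the lipid medians from 43.5 to 78, and the interferon medians stay at 10 or 11.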

How the data were processed

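Single-cell RNA was measured in 1 library per group. The authors deposited raw UMI counts per gene and barcode without normalization. Cell Ranger 2.1.1 and build mm10 appear in the submitters' processing notes, while the file headers record software 3.1.0. The sources used here give neither the annotation release nor how reads shared by paralogs were counted, so H2, Gbp and haemoglobin genes are uncertain. Each UMI is a 3' tag, so levels are not scaled by transcript length.

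Member counts were summed per library and divided by their total (CPM). Log2 ratios carry a prior of 0.5 counts and fold values from few UMIs carry none. No test was run, since each group is 1 library. The 22 gene lists, the members and the alternatives were chosen with earlier results of these data known. Genes were named by rule. Per list, these were up to 6 with the highest level, 4 by the irradiation ratio nearer to 0 over both contrasts and 3 likewise by genotype. Over all genes, they were the 12 highest and lowest by irradiation and the 8 by genotype, at 50 CPM or more and 0.5 times the other barcodes' level. Added were up to 6 genes of opposite direction, the 15 highest against other cells, the 15 highest by Fano factor, and VEGF genes. Some genes over 2-fold in a list are also named in its count. Aen, Gbp7, Col18a1, Prox1, Slc40a1, Clec14a, Ly6a, Dll4, Sox17, Camp, Ngp, Ibsp, Sesn2, Oasl2 and Xaf1 were named after their values were seen. A few genes that the rule named are not reported here. The planned comparator, non-sinusoidal endothelium, held only 4, 7, 14 and 11 cells, so LepR+ stroma and all other barcodes were used instead. Doublets were not removed but scored with Scrublet (scanpy 1.11.5, 0.8% per 1000 barcodes) as an alternative. TMM used edgeR 4.0.16. The calculation was tested on simulated counts. Numbers of cells per library (from 343 to 1587) set the precision, and the irradiated control was the deepest.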

Additional observations from a re-analysis of the deposited data

Results flagged for a closer look

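Some genes moved in opposite directions with irradiation in the genotypes, each by at least 1.5-fold. The values here are log2 irradiation ratios in Vegfc-deleted mice minus those in controls. With 1 library per group the difference between genotypes was not tested, and no explanation was weighed. Sparcl1, a secreted matrix glycoprotein, differed by -3.67 and stood at 5.9, 27.4, 20.6 and 7.31 CPM in the library order of the report. Ly6c1, which capillary and arterial endothelium expresses, differed by -1.85 and stood at 39.4, 107, 78.5 and 59 CPM. Both were highest in the non-irradiated Vegfc-deleted library. With a threshold of 2 sinusoidal UMIs the ratios in controls were 0.46 for Sparcl1 and 0.15 for Ly6c1, under 1.5-fold. Mgp, an inhibitor of calcification, differed by 2.47 and was at 139.5, 15.5, 45.4 and 28.1 CPM, against 2162, 1174, 74.1 and 143 CPM in LepR+ stroma. The mitotic genes Prc1 (2.47, at 46.1, 10.7, 18.3 and 23.7 CPM), Top2a (1.83, at 100.3, 32.8, 58.1 and 67.6 CPM) and Cdk1 (1.78, at 36.7, 11.7, 19 and 20.8 CPM) were highest in the non-irradiated control, and the median of the cell cycle list differed by 1.5. Without likely doublets the ratios in controls turned to 0.88 for Top2a, 1.14 for Cdk1 and 0.69 for Prc1, the same direction as in Vegfc-deleted mice. Without members holding RNA of other cells they were 1.04, 0.76 and 0.39, and that of Mgp was 0.27. In all other barcodes Top2a was at 642, 611, 394 and 412 CPM. Without likely doublets the cell cycle median was positive in both genotypes, at 0.61 and 1.21.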

How the results depend on the processing

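Every count of genes and every share was recomputed with 1 choice changed at a time, the CPM and UMI minimums being changed together as 1 filter. Of 80 alternative counts 64 stayed within 1.5 times the reported count. Dropping the minimum of 20 CPM and using 10 UMIs gave 1029 genes higher and 795 lower with irradiation in controls, 776 and 824 in Vegfc-deleted mice, 273 and 431 for deletion without irradiation and 207 and 801 with it. TMM gave 126 higher with irradiation in controls. Keeping only genes at 0.5 times the other barcodes gave 179 lower with irradiation in controls, 16 lower for deletion without irradiation and 5 higher with it. For deletion without irradiation, thinning gave 38 higher, the mean over members 48 lower, omission of likely doublets 45 lower and omission of members holding RNA of other cells 32 lower. The share of members was 7.98%, 9.09%, 44.7% and 18.1% among barcodes with at least 1000 genes. It was 5.49%, 6.09% and 15.4% at most 5% mitochondrial UMIs in the libraries other than the irradiated control, and 41.8% in the irradiated control with the rule applied to thinned barcodes. Lowering the sinusoidal threshold to 2 or raising it to 8 UMIs, or leaving out shared barcodes, kept all counts within 1.5 times. Among ratios of at least 2-fold, those that reversed were Mki67 (0.22), Mgp (0.27) and Prc1 (0.39) with irradiation in controls, without members holding RNA of other cells, and of Prc1 (0.69) without likely doublets. List medians changed sign under TMM for apoptosis, basement membrane and endothelial transcription factors with irradiation in Vegfc-deleted mice (0.03, 0.04 and 0.03 to -0.08, -0.07 and -0.08). They did so too for haem handling with irradiation in controls (0.21 to -0.0021) and cell cycle for deletion with irradiation (0.01 to -0.11). Causes were not tested. No paired analysis was possible because the groups compared share fewer than 2 replicate numbers, each having 1 library. Members numbered fewest in the non-irradiated libraries, where 3 UMIs correspond to 0.804 and 0.729 CPM, so a gene at 0 there may be present up to that level.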
